A study of Sus scrofa with 24 samples.

Results

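This account describes 40 genes of the cell cycle in pig airway epithelium, 16 of them known for the entry into and passage through S phase (the stage in which DNA is copied) and 24 known for mitosis (the stage in which copied chromosomes are divided). A member was kept when its symbol belonged to a pig Ensembl gene in the count table and when it reached a CPM (a count scaled to the size of its library) of 0.5 in at least 4 libraries. By identifier, 35 of the 40 were found, 14 S phase and 21 mitotic genes. All 35 reached 0.5 CPM in all 24 libraries and all were among the 14172 genes tested, of 25880 pig genes in the table. The member nearest to the limit was CDC6, with 0.723 CPM in its lowest library before scaling, and the lowest count of any member in any library was 24. PCNA, RRM2, MKI67, CCNA2 and AURKA had no identifier with that symbol. RRM2, MKI67 and AURKA were found by their position against RefSeq genes and are given separately, outside the counts of members. PCNA and CCNA2 were not analysed here.

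The cells were bronchial epithelial cells from wild type pigs 1 month of age, cultured with their upper surface in contact with air (air-liquid interface), a format in which airway cells form a layered epithelium. Before stimulation the cultures spent 1 h in DMSO, the solvent, or in 20 µM SB203580, a small molecule that inhibits p38 MAP kinases. They then received 100 ng/ml flagellin, the protein of bacterial flagella that is sensed by TLR5, or PBS (phosphate buffered saline). RNA was sequenced 2 or 24 h later. The 6 groups of 4 libraries were thus DMSO with PBS, DMSO with flagellin, and SB203580 with flagellin, each at 2 and at 24 h, and are called PBS, flagellin, and SB203580 plus flagellin below. The labels used here hold no group with SB203580 and PBS, so a difference between SB203580 plus flagellin and PBS combines both agents.

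On the way into S phase, cyclin E with its kinase helps to release E2F1, a transcription factor. E2F1 drives genes for origin licensing, for the replicative helicase and for the supply of deoxynucleotides. Later, FOXM1 and other factors drive the genes of mitosis, among them cyclin B with CDK1, the kinases and motors of the spindle, and the ubiquitin enzymes that end mitosis. In the airway the dividing cells are mainly basal cells, while ciliated cells divide little or not at all, so such transcripts depend on how many cells cycle. In RNA from whole cultures, fewer cycling cells and less RNA per cycling cell cannot be told apart.

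Each library held between 26345945 and 36267289 counts in pig genes (median 32494269). The 4 libraries of a group fell into 2 sets by their replicate number. Replicates 1 and 2 had 17.9 to 32.2 CPM of EIF1AY, a gene of the Y chromosome, and replicates 3 and 4 had 0 to 0.0284 CPM, so the 2 sets did not come from the same animals. The labels do not say which replicates are separate animals or cultures, so the p-values reflect only how far these libraries differ from each other, part of which may be technical. EPCAM (243 to 401 CPM) and CDH1 (1180 to 2190 CPM), general epithelial genes, were high in every library, and the pan-leukocyte gene PTPRC did not exceed 0.113 CPM. SCGB1A1, the defining gene of club cells, was at 0.753 to 14.8 CPM in replicates 1 and 2 and at 0 to 0.25 CPM in replicates 3 and 4.

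Levels of different members can be compared only per length, as CPM per kilobase of exon (RPKM, computed from the counts). On that scale the highest means over the 24 libraries belonged to UBE2C (24.9 RPKM, SD 16.5), the enzyme that marks mitotic proteins for destruction, RRM1 (23.5, SD 6.0), the large subunit of ribonucleotide reductase, and TYMS (23.2, SD 4.87), which makes thymidylate. NUSAP1, a microtubule binding protein of the spindle, followed at 13.5 RPKM, and MCM6, a subunit of the replicative helicase, at 9.98 RPKM. The lowest were CDC6 (0.353 RPKM), which loads the helicase at origins, FOXM1 (0.582 RPKM) and CCNE2 (0.701 RPKM), one of the genes for cyclin E. The members differed widely in how much their CPM varied. The highest library exceeded the lowest by 13 times for CDC6, 12.6 times for UBE2C, 12.4 times for CCNB1 and 12.3 times for CCNB2, the genes of cyclin B. For NUSAP1 the ratio was 1.56, for CCNE1 2.1 and for MCM7, a further helicase subunit, 2.19.

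**Figure D1:**
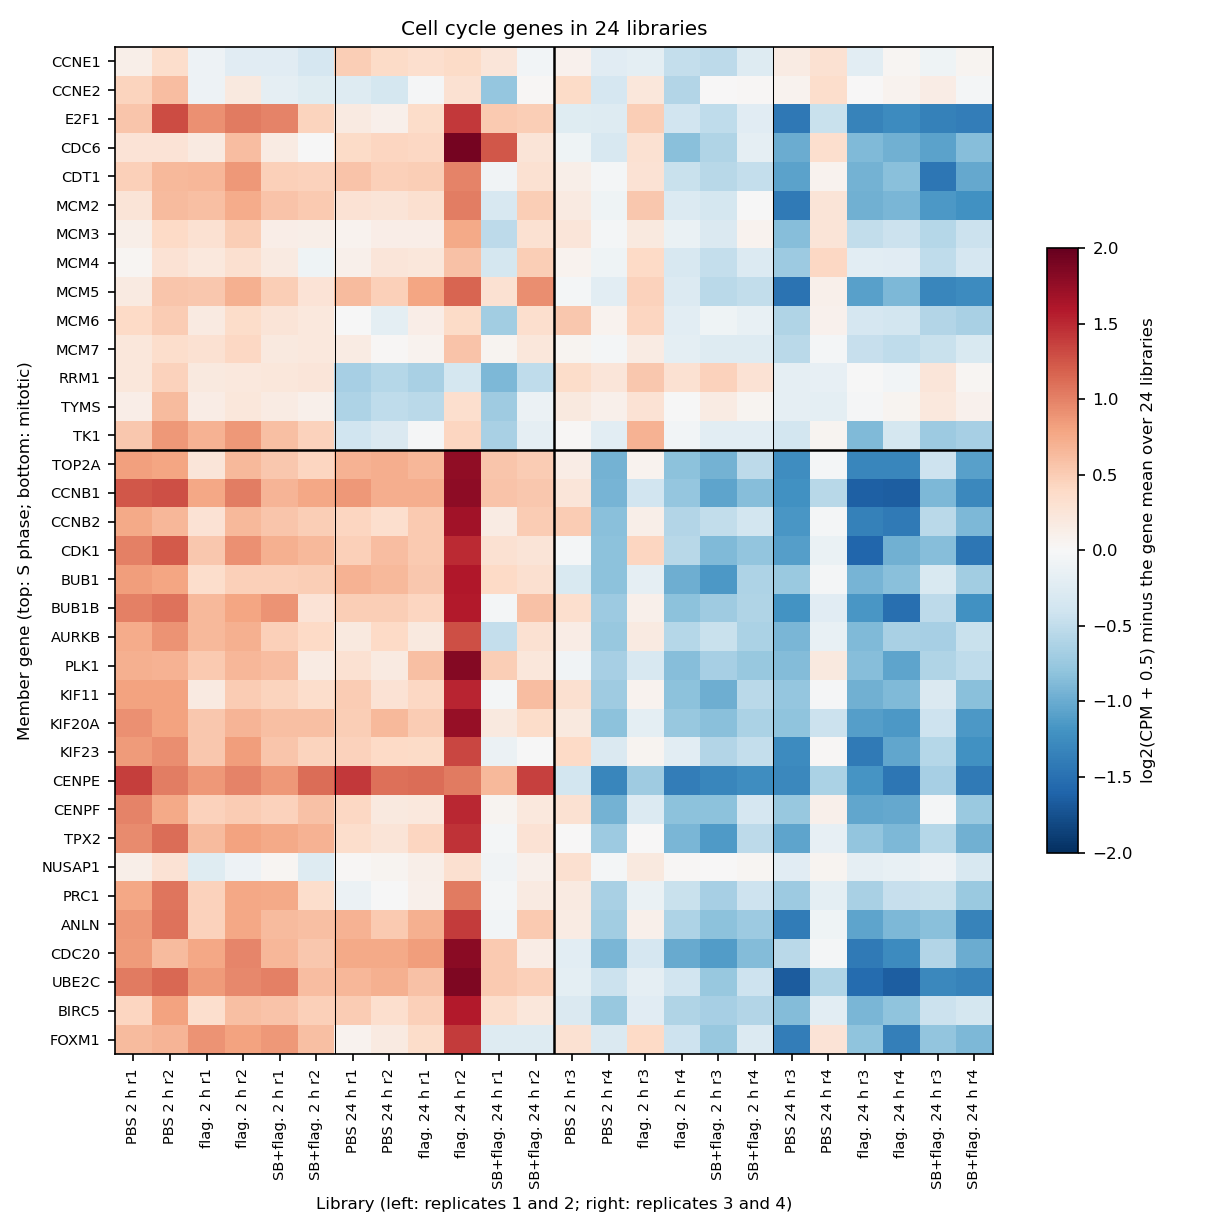
Level of each of the 35 members (rows) in the 24 libraries (columns), as log2 of CPM plus 0.5 minus the gene's mean, with replicates 1 and 2 on the left and replicates 3 and 4 on the right. Most mitotic genes are above their mean on the left and below it on the right, and the library of flagellin at 24 h, replicate 2, stands out as the highest for 18 mitotic and 8 S phase members.

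The split between replicate sets accounted for more of the variation of the mitotic genes than treatment and time did. On the log2 scale, the set with its change over time took a median of 71.8% of a mitotic member's sum of squares, time 3.26% and treatment 3.06%. For S phase members the medians were 33.0% for the set, 14.4% for time and 8.79% for treatment, and over all genes tested they were 39.0%, 11.9% and 7.72%. CENPE, a motor protein of the kinetochore, had 93.1% with the set. The lowest share with the set was that of CCNE2, 13.3%. RRM1 had the largest share for time, 61.4%, with 27.9% for the set, and CCNE1 divided 35.8% for time and 30.2% for treatment. These shares are descriptions, with no test.

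The mean log2 level over the members of a phase, given here as a description, shows the same split. Over the 12 libraries of replicates 1 and 2 the mitotic mean was 4.03 ± 0.33 (SD) and over the 12 of replicates 3 and 4 it was 2.77 ± 0.40, with a lowest value of 3.57 in the former and a highest of 3.5 in the latter. The S phase mean was 4.07 ± 0.24 and 3.55 ± 0.33, and here the sets overlapped (3.62 to 4.52 against 3.12 to 4.15). Within groups the mitotic mean spread widely, from 2.32 to 4.88 in flagellin at 24 h and from 2.60 to 4.03 in SB203580 plus flagellin at 2 h.

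**Figure D2:**
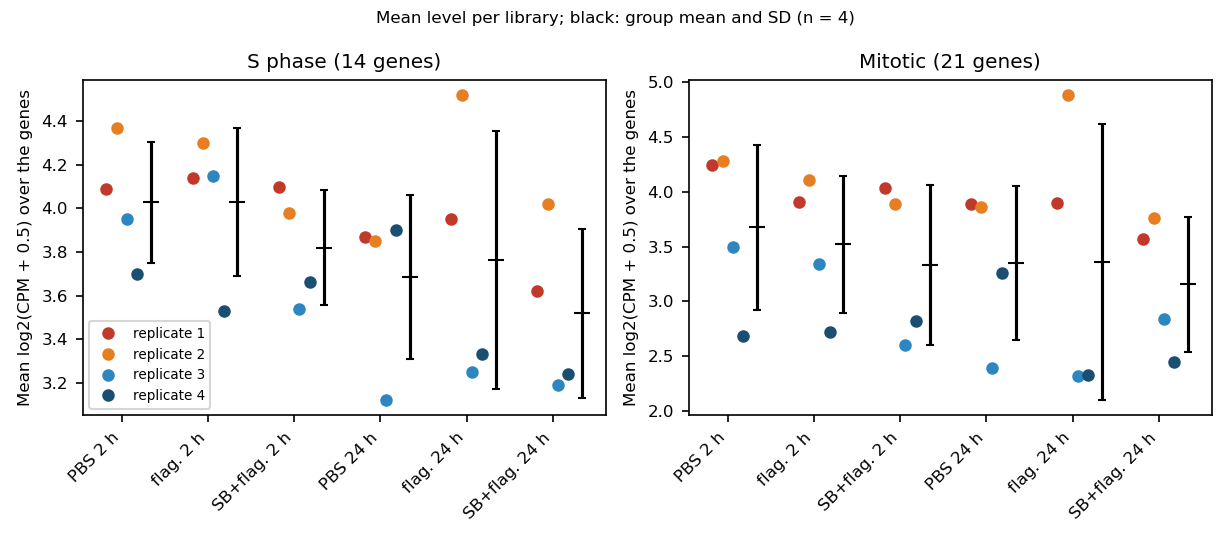
Mean log2 level (CPM plus 0.5) of the S phase and of the mitotic members in each library, by group, with the group mean and SD (n = 4). In each group the libraries of replicates 1 and 2 have the higher mitotic means, and flagellin at 24 h has the largest spread (3.36 ± 1.26).

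Whether flagellin changed these genes was asked against PBS at each time. A member was called when its adjusted p in edgeR's quasi-likelihood test (Benjamini-Hochberg over all genes tested) was under 0.05. At 2 h, 0 of 35 members were called, where 0.325% of all genes were, and at 24 h 0 of 35, where 0.0% were. At an unadjusted p under 0.05 there was 1 member at 2 h, CCNE1, and 0 at 24 h, and DESeq2 called 0 at both times. CCNE1, the main gene of cyclin E, was at 11.2, 13.2, 11 and 8.68 CPM in PBS at 2 h and at 9.53, 8.72, 8.87 and 7.25 CPM in flagellin at 2 h. The flagellin libraries were lower in 4 of 4 same-numbered pairs but overlapped those of PBS, and the log2 fold change was -0.36 (SE 0.148, adjusted p = 0.772).

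At 2 h, 19 of 21 mitotic members had a log2 fold change below 0 (median -0.235), and 9 of 14 S phase members one above 0 (median 0.067). The range ran from -0.41 for CCNE2 to 0.27 for MCM5. At 24 h, 20 of 21 mitotic members (median 0.33) and 13 of 14 S phase members (median 0.13) lay above 0, from -0.22 for CENPE to 0.63 for PLK1, the kinase that drives entry into and progress through mitosis. That direction depended on 1 library. PLK1 was at 6.65, 6.07, 2.69 and 6.1 CPM in PBS at 24 h and at 8.33, 20.1, 2.71 and 2.3 CPM in flagellin at 24 h, where replicate 2 exceeded every other library of the study. Without that library the median at 24 h was -0.52 for mitotic members, 0 of 21 above 0, and -0.20 for S phase members, 3 of 14 above 0. Leaving it out also left 1 library of replicates 1 and 2 against 2 in PBS, in a fit without a set term, and these values carry that imbalance. The mean log2 level of the mitotic members in the other same-numbered pairs was 3.90 with flagellin against 3.89 in PBS, 2.32 against 2.39 and 2.33 against 3.26, so that replicate 4 was the pair with a wide gap. Within replicates 1 and 2 alone the mitotic median was 0.65 and within replicates 3 and 4 alone it was -0.62.

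The same library also lay at an end of the range in some lists of cell type markers, but not in most. Flagellin at 24 h, replicate 2, had the highest summed level of 16 squamous epithelium genes of all 24 libraries (20300 CPM, the next 19700 CPM). It also had the highest sum of 15 fibroblast and smooth muscle genes (78.8 CPM, the next 60.1 CPM). It ranked 13 of 24 for 13 basal cell genes (9010 CPM), which was the highest of replicates 1 and 2. For 16 secretory genes it ranked 12 (2490 CPM), the lowest of replicates 1 and 2. In the other lists it ranked 10 (ciliated cell), 4 (multiciliation programme), 8 (leukocyte) and 12 (endothelial). The part of these in its high mitotic levels was not tested.

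SB203580 was asked about by comparing SB203580 plus flagellin with flagellin. At 2 h and at 24 h 0 of 35 members were called, where 0.00706% and 0.0% of all genes were, with 0 at an unadjusted p under 0.05 and 0 by DESeq2 at either time. At 2 h all 14 S phase members had values below 0 (median -0.22), as did 19 of 21 mitotic members (median -0.13), from -0.41 for MCM5 to 0.02 for CENPF, a kinetochore protein. The mitotic median at 2 h was -0.02 within replicates 1 and 2 alone, with 8 of 21 above 0. Within replicates 3 and 4 alone it was -0.39. By replicate number, the mitotic mean log2 level was 4.03, 3.89, 2.60 and 2.82 with SB203580 against 3.91, 4.11, 3.34 and 2.72 in flagellin alone. The S phase medians were -0.24 and -0.27 in the 2 sets. At 24 h the medians were -0.33 for S phase and -0.59 for mitotic members. The lowest was FOXM1, with 2.66, 2.68, 1.7 and 1.53 CPM with SB203580 against 4.41, 9.48, 1.68 and 0.965 CPM in flagellin alone, or -0.95 on the log2 scale (SE 0.577, adjusted p = 1.0), and the highest was RRM1 at 0.03. FOXM1 was lower with SB203580 in 2 of 4 same-numbered pairs. Without flagellin at 24 h, replicate 2, the mitotic median turned to 0.21, with 18 of 21 members above 0, and the S phase median was -0.03. The same imbalance of sets applies to these values. The mitotic median was -0.88 within replicates 1 and 2 alone and 0.40 within replicates 3 and 4 alone.

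Against PBS, SB203580 plus flagellin also gave 0 of 35 calls at 2 h, where 0.183% of all genes were called, and 0 of 35 at 24 h, where 0.00706% were. CCNE1 alone had an unadjusted p under 0.05 at each time, and DESeq2 called 0. All 35 members had values below 0 at 2 h, with medians of -0.19 for S phase and -0.36 for mitotic members, from -0.60 for CCNB1 to -0.02 for RRM1. At 24 h 30 of 35 were below 0 (medians -0.17 and -0.20), from -0.61 for CDT1, a helicase loader, to 0.28 for TYMS. With a term for the replicate set at each time, CCNE1 was called at 2 h, where 1.98% of all genes were called. Its levels were 8.72, 8.07, 6.97 and 8.48 CPM with both agents, where only replicate 1 was above the lowest PBS library at 2 h (8.68 CPM in replicate 4), and the log2 fold change in that fit was -0.45 (SE 0.113, adjusted p = 0.043). It was -0.45 (SE 0.148, adjusted p = 0.50) without the term. CCNE1 was lower than in PBS in 4 of 4 same-numbered pairs at 2 h and again at 24 h (-0.31, SE 0.147, adjusted p = 1.0).

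Whether the treatments acted differently at the 2 times was tested as an interaction. For flagellin with time 0 of 35 members were called, where 0.0423% of all genes were, and for SB203580 with time 0 of 35, where 0.0% were, with 0 at an unadjusted p under 0.05 and 0 by DESeq2 in both. The mitotic medians of 0.56 and -0.43 turned to -0.26 and 0.39 without flagellin at 24 h, replicate 2, again with the sets unbalanced.

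How small a difference these fits could have called varied by gene. The main fit held no block or set term, so the difference between the replicate sets counted as spread within a group. In it, the standard error of the treatment log2 fold changes had a median near 0.276 for S phase and 0.576 for mitotic members at 24 h against PBS. It reached 0.835 for CENPE, which had 93.1% of its sum of squares with the set. With the set term, the CCNE1 call given above was the only treatment call of a member. For the other members of most interest, the 6 treatment values lay in the following ranges. TOP2A, the topoisomerase that untangles copied DNA, lay between -0.52 and 0.32 (SE 0.628 to 0.629), CCNB1 between -0.60 and 0.33 (SE 0.756 to 0.759) and its kinase CDK1 between -0.64 and 0.25 (SE 0.644 to 0.649). The spindle checkpoint kinase BUB1 lay between -0.51 and 0.24, and AURKB, the kinase of the chromosomal passenger complex, between -0.60 and 0.33. Among S phase members, E2F1 lay between -0.44 and 0.59, CDC6 between -0.50 and 0.56, the helicase subunit MCM2 between -0.50 and 0.19, and TK1, thymidine kinase, between -0.44 and 0.24. RRM1 had the narrowest range, -0.02 to 0.16 (SE 0.191 to 0.192). Outside the members, MKI67, the gene of the Ki-67 protein of cycling cells, lay between -0.81 and 0.56, RRM2, the small subunit of ribonucleotide reductase, between -0.81 and 0.43, and AURKA, the kinase of the spindle poles, between -0.41 and 0.38.

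**Figure D3:**
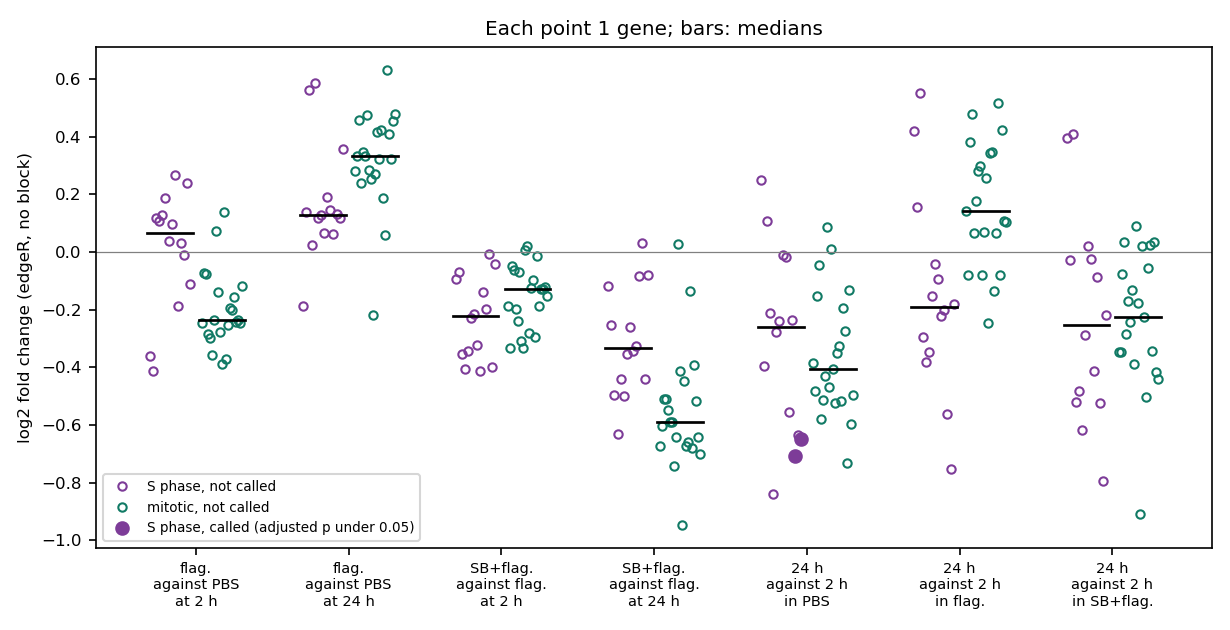
Log2 fold change of each member (points, S phase and mitotic apart, with the median as a bar) in 7 comparisons, filled where called. The treatment comparisons hold no filled point, and the mitotic medians at 24 h (0.33 for flagellin against PBS, -0.59 for SB203580 plus flagellin against flagellin) include the library of flagellin at 24 h, replicate 2.

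Between 2 groups, members were called over time only, and only in PBS. There, RRM1 and TYMS fell from 2 to 24 h, 2 of 35 members, where 4.88% of all genes were called lower and 10.2% in either direction. RRM1 was at 62.9, 74.7, 70.0 and 63.6 CPM at 2 h and at 34, 36.3, 47.8 and 48.1 CPM at 24 h. The times did not overlap, and the log2 fold change was -0.71 (SE 0.193, adjusted p = 0.0239), lower in 4 of 4 same-numbered pairs. TYMS was at 58.2, 82.2, 60.9 and 56.8 CPM at 2 h and at 34.4, 37.2, 46.9 and 46.2 CPM at 24 h. These did not overlap either, and TYMS fell by 0.65 on the log2 scale (SE 0.182, adjusted p = 0.0279), in 4 of 4 pairs. RRM1 lies on chromosome 9 from 6026595 to 6058025 and TYMS on chromosome 6 from 105642381 to 105660601, both on the minus strand, in the coordinates of the deposited table.

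Markers of other cell types also moved over time in PBS. The summed endothelial genes were at 142 to 305 CPM at 2 h and at 359 to 541 CPM at 24 h, without overlap, with ERG at 0 in all libraries and CDH5, TEK, ROBO4 and EMCN under 1 CPM. TIE1, of that list, rose by 1.4 on the log2 scale, the leukocyte list genes CD68 and CD79A rose by 1.37 and 0.84, MYH11, of smooth muscle, rose by 1.01, and RFX2, of ciliated cells, fell by 0.73. These are single called genes and do not stand for their lists. The fibroblast and smooth muscle sum had a median of 39.4 CPM at 2 h and 31.7 CPM at 24 h, opposite to MYH11. The leukocyte sum had medians of 46.0 and 56.5 CPM and the ciliated cell sum 324 and 300 CPM. All lists but the endothelial overlapped between the times, and 0 of 13 basal, 16 squamous, 15 secretory and 10 multiciliation genes were called in the edgeR fit. Their unadjusted p was under 0.05 for 3, 0, 0 and 2 of them, and DESeq2 called 1, 0, 0 and 0. The part of these in the RRM1 and TYMS values was not tested.

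These 2 calls depended on single libraries. RRM1 was not called without PBS at 2 h replicate 2 (adjusted p = 0.0665) or 3 (0.0568), or without PBS at 24 h replicate 1 (0.0765) or 2 (0.0777), with log2 fold changes from -0.69 to -0.62. TYMS was not called without PBS at 2 h replicate 2 (-0.51, adjusted p = 0.108), or without PBS at 24 h replicate 1 (-0.57, 0.0861) or 2 (-0.60, 0.0839). With the replicate number as a block, the RRM1 change was -0.73 (SE 0.132, adjusted p = 0.000865) and that of TYMS -0.65 (SE 0.156, adjusted p = 0.00627). MCM6 was then called as well (-0.54, SE 0.188, adjusted p = 0.0466), where 22.5% of all genes were. With the term for the replicate set instead, 5 members were called lower, where 33.2% of all genes were called, the others being PRC1, which bundles the microtubules of the dividing cell (-0.63, adjusted p = 0.0316), and TK1 (-0.56, adjusted p = 0.0479).

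With flagellin, 0 of 35 members were called over time, where 7.9% of all genes were, and with SB203580 plus flagellin 0 of 35, where 6.88% were. At an unadjusted p under 0.05 there were 3 members in each, RRM1, TK1 and CCNE1, and DESeq2 called 2 with flagellin. RRM1 was at 61.6, 62.3, 78.4 and 66.5 CPM in flagellin at 2 h and at 34.1, 42.4, 53.5 and 52.2 CPM at 24 h, again with no overlap (-0.56, SE 0.192, adjusted p = 0.079). With SB203580 plus flagellin it was at 63.0, 63.9, 74.7 and 65.9 CPM and then at 28.8, 37.9, 63.9 and 55.3 CPM (-0.52, SE 0.192, adjusted p = 0.11), where replicate 3 reached the 2 h level of replicates 1 and 2. TYMS differed less here, with -0.18 (SE 0.181) for flagellin and -0.22 (SE 0.181) for SB203580 plus flagellin, and its changes were not tested against that in PBS beyond the interactions above.

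TK1, which salvages thymidine, was at 14.4, 16.3, 14.4 and 8.33 CPM in flagellin at 2 h and at 8.59, 11.9, 4.51 and 6.7 CPM at 24 h. The times overlapped but each same-numbered pair was lower at 24 h (-0.75, SE 0.295, adjusted p = 0.129). CCNE1 had values in the other direction. In flagellin it was at 9.53, 8.72, 8.87 and 7.25 CPM at 2 h and at 13.1, 13.5, 8.85 and 10.6 CPM at 24 h, higher in 3 of 4 pairs (0.42, SE 0.148, adjusted p = 0.0871), and with SB203580 plus flagellin it was at 8.72, 8.07, 6.97 and 8.48 CPM and then at 12.2, 9.88, 9.67 and 10.7 CPM, higher in 4 of 4 pairs and without overlap (0.395, SE 0.148, adjusted p = 0.117). Single libraries bore on these values, in fits that then had unbalanced sets and no set term. Without flagellin at 24 h, replicate 3, CCNE1 was called with flagellin (0.54, adjusted p = 0.0333), and without flagellin at 24 h, replicate 2, TK1 was (-1.0, adjusted p = 0.0476). With SB203580 plus flagellin, RRM1 was called without replicate 3 at 24 h (-0.72, adjusted p = 0.0329) and MCM6 without replicate 2 at 24 h (-0.73, adjusted p = 0.0362).

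With the replicate number as a block these 3 genes were called in both arms, where 18.8% of all genes were called with flagellin and 17.1% with SB203580 plus flagellin. In flagellin, CCNE1 rose (0.41, adjusted p = 0.0233), and RRM1 (-0.58, adjusted p = 0.0053) and TK1 (-0.80, adjusted p = 0.0175) fell. With SB203580 plus flagellin the values were 0.395 (adjusted p = 0.0304), -0.57 (0.00644) and -0.77 (0.023). The term for the replicate set gave the same 3 genes in each arm, where 28.9% and 27.1% of all genes were called.

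**Figure D4:**
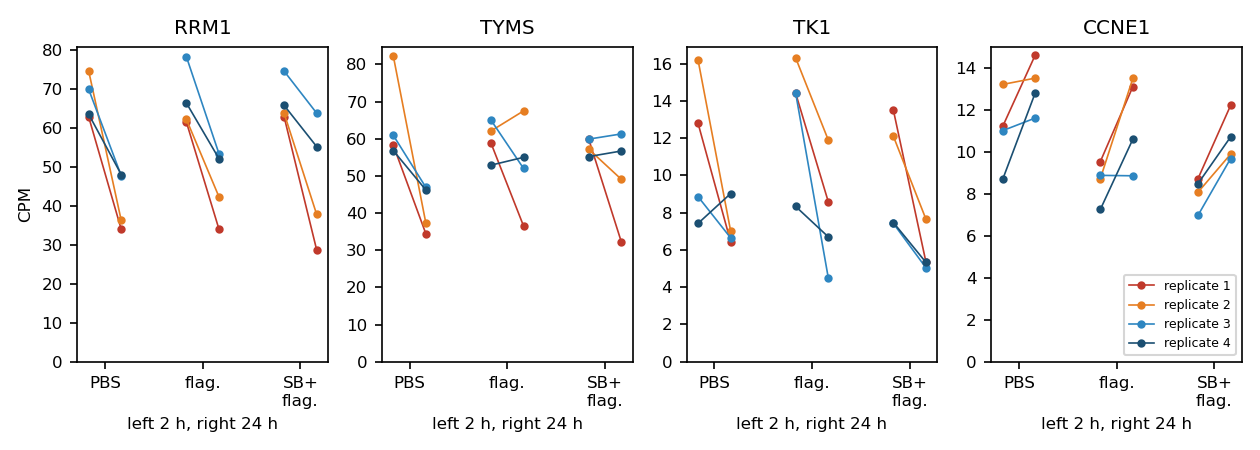
CPM of RRM1, TYMS, TK1 and CCNE1 at 2 and 24 h, with a line for each replicate number in PBS, flagellin, and SB203580 plus flagellin. RRM1 is lower at 24 h on each of the 12 lines, while CCNE1 is higher on all but the line of flagellin replicate 3 (8.87 to 8.85 CPM).

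TK1 shares 2489 of its 4484 exon bases with SYNGR2, and TYMS shares 1026 of 2338 with ENOSF1, on the opposite strand. The sources used here do not give whether counting used the strand, and without it the reads of such a pair cannot be told apart. In all, 11 members share exon bases with another gene, the largest share being that of CDC20, the activator of the mitotic ubiquitin ligase, with 4348 of 5397 bases in ELOVL1. MCM4, MCM7, CCNE2, BUB1B, KIF20A, TPX2, NUSAP1 and FOXM1 are the others.

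The mitotic members gave 0 calls over time in each arm, with 0 at an unadjusted p under 0.05. In PBS 19 of 21 lay below 0 (median -0.405), in flagellin 16 of 21 above 0 (median 0.14) and in SB203580 plus flagellin 16 of 21 below 0 (median -0.23). Without flagellin at 24 h, replicate 2, 0 of 21 were above 0 in flagellin (median -0.54). That fit again had unbalanced sets and no set term. The mean log2 level of the mitotic members with flagellin at 2 and 24 h was 3.91 and 3.90 in replicate 1. It was 3.34 and 2.32 in replicate 3, and 2.72 and 2.33 in replicate 4. Replicates 1 and 2 alone had 21 of 21 above 0 in flagellin (median 0.46) and replicates 3 and 4 alone 0 of 21 (median -0.74). The extremes in PBS were E2F1 (-0.84, SE 0.666) and CCNE1 (0.25), in flagellin TK1 (-0.75) and CDC6 (0.55, SE 0.684), and in SB203580 plus flagellin FOXM1 (-0.91, SE 0.576) and CDC6 (0.41). Over the 3 arms TOP2A ranged from -0.13 to 0.42, CCNB1 from -0.51 to 0.18, CDK1 from -0.47 to -0.08, PLK1 from -0.27 to 0.52, AURKB from -0.48 to -0.08 and BUB1 from -0.04 to 0.48. MCM2 ranged from -0.62 to -0.28, CDT1 from -0.52 to -0.21, CCNE2 from -0.395 to 0.16 and MCM5 from -0.095 to -0.02. MKI67 ranged from -0.70 to 0.09 and RRM2 from -0.96 to -0.50, with an unadjusted p under 0.05 in 1 arm.

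A test of any difference among the 6 groups called 3 members, all of S phase, where 15.3% of all genes were called. They were CCNE1 (adjusted p = 0.0115), RRM1 (0.0155) and TK1 (0.0442). The share of members called, 3 of 35, was below that of all genes, and 0 of 21 mitotic members were called. MCM6 was called without SB203580 plus flagellin at 24 h, replicate 2 (0.0141). CCNE1 lost its call within replicates 3 and 4 alone (adjusted p = 0.0664). TK1 lost its call when any of 14 libraries was left out (adjusted p = 0.0542 to 0.105), among them PBS at 2 h replicates 1 and 2, PBS at 24 h replicates 1, 2 and 3, flagellin at 2 h replicates 1, 2 and 3, flagellin at 24 h replicates 1 and 4, and with SB203580 at 2 h replicate 2 and at 24 h replicates 1, 3 and 4. With the replicate block 5 members were called, where 30.5% of all genes were, MCM6 (0.0391) and TYMS (0.03) being added. With the term for the replicate set 7 were called, where 44.7% of all genes were.

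The replicate sets differed far more than the groups did. These are libraries split by number and not groups of the study, and animal, culture and preparation cannot be told apart between them. Replicates 3 and 4 were compared with replicates 1 and 2 at each time, with a term for each group. The fit treats the 12 libraries of a set as separate samples. Same-numbered libraries deviated together, however, so where they share an animal these p-values are too small. At 2 h, 20 of 21 mitotic members were lower in replicates 3 and 4, the exception being NUSAP1, along with 5 of 14 S phase members, where 25.8% of all genes were called lower and 26.2% higher. At 24 h, all 21 mitotic and 10 S phase members were lower and 2 S phase members higher, where 32.9% of all genes were called lower and 31.6% higher. The median log2 difference was -1.165 at 2 h and -1.385 at 24 h for mitotic members, -0.32 and -0.53 for S phase members, and -0.01 and -0.02 for all genes.

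Of the genes for entry into mitosis, CCNB1 had 18.2, 21.3 and 27.8 CPM as lowest, median and highest value at 2 h in replicates 1 and 2 and 5.11, 6.14 and 13.2 CPM in replicates 3 and 4. The sets did not overlap, and CCNB1 was lower by a log2 difference of -1.61 (SE 0.243, adjusted p = 2.44e-05). At 24 h it was at 16.4 to 39.7 CPM (median 18.8) against 3.21 to 7.44 CPM (median 4.39), a difference of -2.19 (SE 0.254). CDK1 was lower by -1.305 and -1.71, its partner CCNB2 by -0.89 and -1.73, PLK1 by -1.21 and -1.34 and FOXM1 by -0.995 and -1.20. The CCNB2 call at 2 h was lost without any of 6 libraries (adjusted p = 0.0517 to 0.0685), namely PBS replicate 4, flagellin replicates 2 and 4, and SB203580 plus flagellin replicates 1, 3 and 4.

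Among kinetochore and checkpoint genes CENPE had the largest difference of all members. At 2 h it was at 29.9 to 42.9 CPM (median 33.1) in replicates 1 and 2 and at 5.86 to 12.4 CPM (median 6.42) in replicates 3 and 4, and at 24 h at 25.5 to 43.7 CPM (median 35.5) and 5.62 to 10.2 CPM (median 6.59). No library of one set reached the other, and the log2 differences were -2.14 (SE 0.189, adjusted p = 4.23e-08) and -2.28 (SE 0.19, adjusted p = 7.29e-09). In CENPE flagellin at 24 h, replicate 2, was not the highest library (33.9 CPM, against 43.7 CPM in PBS at 24 h, replicate 1), unlike in 18 of 21 mitotic members. BUB1 was lower by -1.31 and -1.385, BUB1B, its partner in the checkpoint, by -1.21 and -1.68, and CENPF by -1.10 and -1.06.

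Spindle and cytokinesis genes followed. TOP2A lay between 17.5 and 26.4 CPM in replicates 1 and 2 at 2 h and between 7.42 and 16.5 CPM in replicates 3 and 4, without overlap (-1.06, SE 0.287), and at 24 h the difference was -1.75. TPX2, which activates AURKA at the spindle, was lower by -1.37 and -1.25, KIF11, the motor that separates the poles, by -0.94 and -1.25, and KIF20A, a motor of the cleavage stage, by -1.22 and -1.61. KIF23, its counterpart in the central spindle, was lower by -0.89 and -1.345, PRC1 by -1.06 and -0.77, ANLN, the scaffold of the cleavage furrow, by -1.16 and -1.56, AURKB by -1.08 and -1.12, and its partner BIRC5, or survivin, by -1.165 and -1.32. NUSAP1 differed from the rest, with 51.8 to 75.4 CPM in replicates 1 and 2 and 60.1 to 77.0 CPM in replicates 3 and 4 at 2 h (0.12, adjusted p = 0.229) and -0.24 (adjusted p = 0.0131) at 24 h.

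UBE2C and CDC20, which act together at the exit from mitosis, were lower as well. UBE2C was at 25.8 to 37.4 CPM (median 33.5) in replicates 1 and 2 and at 9.66 to 14.7 CPM (median 12.5) in replicates 3 and 4 at 2 h, and at 23.3 to 62.1 CPM (median 26.0) and 4.92 to 10.8 CPM (median 5.87) at 24 h. Neither time had overlap, and the log2 differences were -1.36 (SE 0.221) and -2.24 (SE 0.233). For CDC20 they were -1.54 and -1.70. The sets did not overlap for 17 of 21 mitotic members at 2 h and 14 at 24 h, and for 8 over both times together, TOP2A, CCNB1, BUB1, KIF20A, CENPE, CDC20, UBE2C and BIRC5, all lower in replicates 3 and 4. Of all genes tested, 13.1% were lower without overlap at 2 h (13.7% higher), 17.1% at 24 h (19.1% higher) and 4.02% over both times (4.44% higher).

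**Figure D5:**
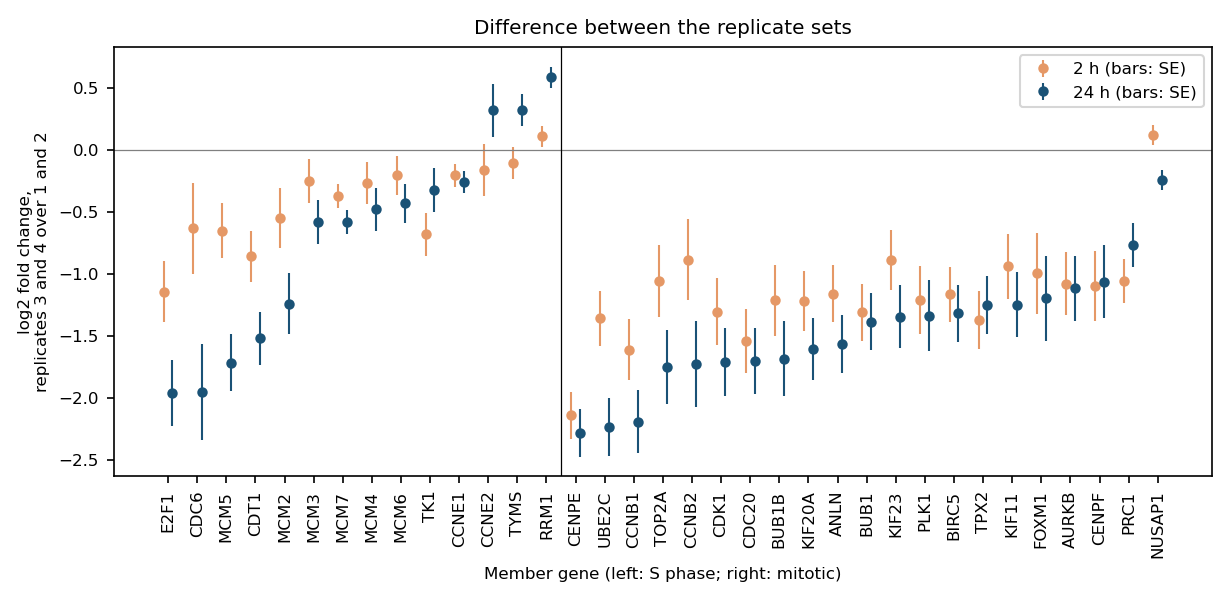
Log2 difference of replicates 3 and 4 from replicates 1 and 2 with its SE, for each member at 2 h and at 24 h. Mitotic members lie between -2.28 (CENPE at 24 h) and 0.12 (NUSAP1 at 2 h), and S phase members between -1.96 (E2F1 at 24 h) and 0.585 (RRM1 at 24 h).

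The S phase members did not move as one group between the sets. The regulators of entry and licensing were lower, E2F1 by -1.14 and -1.96 and CDT1 by -0.86 and -1.52, at 2 and 24 h. E2F1 had a median of 10.0 CPM in replicates 1 and 2 and 4.1 CPM in replicates 3 and 4 at 2 h, and of 6.86 and 1.65 CPM at 24 h, when the sets did not overlap (5.36 to 14.1 against 1.52 to 3.49 CPM). CDC6 was lower by -0.63 at 2 h (adjusted p = 0.158) and by -1.95 at 24 h (adjusted p = 0.000223). Of the helicase subunits MCM5 (-0.65 and -1.71) and MCM7 (-0.375 and -0.58) were called at both times, and MCM2 (-1.24), MCM3 (-0.58), MCM4 (-0.48) and MCM6 (-0.43) at 24 h, when their differences at 2 h lay between -0.55 and -0.21.

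The cyclin E genes differed little. CCNE1 had differences of -0.21 (adjusted p = 0.0673) and -0.26 (adjusted p = 0.0173), and CCNE2 was not called at either time (-0.16 and 0.32). The genes of nucleotide supply went apart. TK1 was lower by -0.68 at 2 h and had -0.33 (adjusted p = 0.11) at 24 h, while RRM1 was higher in replicates 3 and 4 at 24 h, with 47.8 to 63.9 CPM against 28.8 to 42.4 CPM, without overlap (0.585, SE 0.0853, adjusted p = 7.15e-06). At 2 h RRM1 was at 63.6 to 78.4 CPM against 61.6 to 74.7 CPM (0.11, adjusted p = 0.284). TYMS was higher by 0.32 at 24 h (adjusted p = 0.0386). Between sets 2 S phase members did not overlap at 2 h, CDT1 and MCM7, and 4 at 24 h, E2F1, MCM5 and MCM7, which were lower, and RRM1. These counts, 2 and 3 of 14 lower and 1 of 14 higher, stand beside the all-gene shares without overlap given above and are not read as particular to S phase.

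Several of these calls rested on single libraries. That of TYMS at 24 h was lost without any of 7 libraries of 24 h (adjusted p = 0.0523 to 0.118), PBS replicates 1, 2 and 3, flagellin replicate 1 and SB203580 plus flagellin replicates 1, 3 and 4. That of MCM6 was lost without PBS replicate 3, flagellin replicates 2, 3 and 4 or SB203580 plus flagellin replicate 2 (0.0502 to 0.104), that of MCM4 without the last of these (0.0789), that of CCNE1 without flagellin replicate 3 (0.0726), and that of MCM5 at 2 h without flagellin replicate 4 (0.0502). Other members were not called in the main fit but were when a library was left out. Of these, MCM2 at 2 h was also called by DESeq2 with all libraries (-0.55, adjusted p = 0.0356). At 2 h these were MCM2 without flagellin at 2 h replicate 3 (0.0392), PBS at 24 h replicate 3 (0.0421) or 4 (0.00751) or flagellin at 24 h replicate 2 (0.0478), CCNE1 without SB203580 plus flagellin at 2 h replicate 4 (0.037) and NUSAP1, higher in replicates 3 and 4, without PBS at 2 h replicate 4 (adjusted p = 0.05, rounded). At 24 h it was TK1, without PBS replicate 4 (0.0291).

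Whether the sets differed more at one time than at the other was tested as an interaction, which called 4 members, where 35.0% of all genes were called. The set difference was more negative at 24 h for MCM5 (-1.06, SE 0.317, adjusted p = 0.0134), UBE2C (-0.88, SE 0.315, adjusted p = 0.0364) and NUSAP1 (-0.36, SE 0.115, adjusted p = 0.0183), and more positive for RRM1 (0.47, SE 0.12, adjusted p = 0.00419). The median of RRM1 was 62.9 CPM at 2 h and 35.2 CPM at 24 h in replicates 1 and 2, and 68.2 and 52.8 CPM in replicates 3 and 4. The UBE2C call was lost without any of 10 libraries (adjusted p = 0.0529 to 0.0811), PBS at 2 h replicates 1 and 3, PBS at 24 h replicate 3, flagellin at 2 h replicates 1, 2 and 3, flagellin at 24 h replicates 3 and 4, and with SB203580 at 2 h replicates 2 and 4. Without PBS at 24 h, replicate 4, 11 members were called, among them CDC6 (-1.79, adjusted p = 0.00251), MCM2 (-1.05, 0.00157), CDT1 (-0.945, 0.00287), E2F1 (-1.11, 0.00571), CCNB2 (-1.17, 0.0401), MCM3 (-0.535, 0.0475) and MCM7 (-0.30, 0.0496). The share of all genes called in that fit is not given here. CDC6 was also called without PBS at 24 h replicate 1 or 2, flagellin at 2 h replicate 4 or flagellin at 24 h replicate 1 (0.0362 to 0.0456), E2F1 without PBS at 2 h replicate 2 (0.0471) and TYMS without flagellin at 24 h replicate 2 (0.00217). With all libraries, DESeq2 called CDC6 as well (-1.35, adjusted p = 0.028).

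The genes outside the members that were found by position were lower in replicates 3 and 4 at 24 h as well. MKI67 had medians of 40.5 and 15.3 CPM at 2 h, without overlap (-1.17, SE 0.361, adjusted p = 0.0119), and 25.6 and 8.86 CPM at 24 h, with overlap (-1.47, adjusted p = 0.00236, and 0.0612 without the 5 libraries named below). AURKA had -0.86 and -1.26, without overlap at either time, though it shares 2561 exon bases with FAM210B. RRM2 had -0.49 (adjusted p = 0.204) and -0.82 (adjusted p = 0.0372), in contrast to its partner RRM1, and the RRM2 call at 24 h was lost without PBS replicate 3, flagellin replicates 2, 3 or 4, or SB203580 plus flagellin replicates 2, 3 or 4 (0.0598 to 0.146). Without the 5 libraries the RRM2 difference was -0.17 (adjusted p = 0.704), and with no filter on low counts -0.795 (adjusted p = 0.0667).

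Markers of cell types moved with the sets. The 13 measured of 18 basal cell genes summed to 6300 to 8150 CPM in replicates 1 and 2 and to 11000 to 12800 CPM in replicates 3 and 4 at 2 h, and to 6190 to 9010 and 11600 to 13900 CPM at 24 h. The basal cell factor TP63 was at 29.5 to 85.8 CPM and at 80.8 to 108 CPM. Single basal cell genes went both ways, with 5 of 13 higher and 4 lower in replicates 3 and 4 at each time. DST was higher (1.18 at 2 h and 1.23 at 24 h), as were ITGB6 (1.07 at 2 h) and TP63 (1.095 at 24 h), while NGFR (-1.73) and KRT15 (-1.10) were lower at 2 h and DLK2 (-2.49) and CAV2 (-1.095) at 24 h. The higher sum therefore does not describe the list as a whole. The 16 measured of 22 squamous genes summed to 7030 to 19700 against 3790 to 4440 CPM at 2 h and to 4810 to 20300 against 3840 to 4830 CPM at 24 h. The 16 of 18 secretory genes summed to 2570 to 4430 against 1080 to 1770 CPM and to 2490 to 4890 against 1070 to 1590 CPM.

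For the other lists the ranges at 2 h were 290 to 480 against 302 to 342 CPM for 25 of 28 ciliated cell genes (CAPS at 0 in all libraries), 55.9 to 85.0 against 42.5 to 69.3 CPM for 10 of 12 genes of the multiciliation programme, 56.1 to 111 against 32.6 to 46.7 CPM for 18 of 19 leukocyte genes (CD3E at 0), 47.3 to 56.1 against 25.5 to 29.6 CPM for 15 of 16 fibroblast and smooth muscle genes, and 108 to 191 against 192 to 305 CPM for 11 of 13 endothelial genes (ERG at 0). At 24 h they were 244 to 336 against 220 to 307 CPM, 57.3 to 75.8 against 38.3 to 58.2 CPM, 59.3 to 179 against 44.2 to 65.1 CPM, 27.3 to 78.8 against 25.3 to 39.0 CPM, and 168 to 383 against 372 to 541 CPM, in the same order. FOXJ1, the factor of ciliated cells, was at 3.46 to 22.8 CPM in replicates 1 and 2 and at 1.53 to 10.8 CPM in replicates 3 and 4. The part of cell type in the set difference was not tested.

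The difference was also computed without 5 libraries of replicates 1 and 2, picked from their cell type markers in earlier results of these data (PBS at 2 h replicate 2, flagellin at 24 h replicate 2, and SB203580 plus flagellin at 2 h replicate 1 and at 24 h replicates 1 and 2). Their summed secretory genes, 2490 to 3740 CPM, lay above those of all libraries of replicates 3 and 4. Mitotic medians were then -1.08 at 2 h and -1.26 at 24 h, and S phase medians -0.295 and -0.37. NUSAP1 (adjusted p = 0.101), MCM3 (0.0757), MCM4 (0.221) and MCM6 (0.176) lost their calls at 24 h and MCM5 (0.081) at 2 h. RRM1 (0.16, adjusted p = 0.0434) and NUSAP1 (0.21, adjusted p = 0.0345) were then called higher in replicates 3 and 4 at 2 h. The mitotic median of flagellin against PBS at 24 h was -0.52 without these libraries, and that of SB203580 plus flagellin against PBS at 24 h was -0.89. This fit had unbalanced sets and no set term. At 24 h, SB203580 plus flagellin held only replicates 3 and 4, and flagellin lacked replicate 2, while PBS kept all replicates. For SB203580 plus flagellin against PBS the median was -0.20 with all libraries. It was -0.21 within replicates 1 and 2 alone and -0.23 within replicates 3 and 4 alone.

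Other genes of the cycle, in 5 lists, were set beside the members. In the 8 treatment comparisons and interactions 0 values were called in each list, with an unadjusted p under 0.05 for 3 of 312 values of 39 other replication genes, 5 of 496 of 62 other mitotic genes, 3 of 128 of 16 G1 cyclins, kinases and inhibitors, 1 of 136 of 17 regulators of the RB, E2F and DREAM system, and 0 of 88 of 11 genes of histone and chromatin supply. The medians of the other mitotic genes lay between -0.45 and 0.38.

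Over time the lists held few calls. In PBS 2 of 39 replication, 2 of 62 mitotic, 1 of 16 G1 and 2 of 11 histone genes were called, where 10.2% of all genes were. In flagellin 2, 3, 1 and 0 were (7.9% of all genes), and with SB203580 plus flagellin 0, 2, 1 and 0 (6.88%). The lists with 0 calls had 3 histone genes in flagellin, and 4 replication and 0 histone genes with SB203580, at an unadjusted p under 0.05, and DESeq2 called 0, 1 and 0 of them. In PBS, POLD2 (0.48) and POLA2 (0.405), subunits of the replicative DNA polymerases, rose, and SMC2 (-0.90), a condensin subunit, KPNA2 (-0.67), a nuclear import receptor, CDK4 (-0.29), the G1 kinase, H2AZ1 (-0.48), a histone variant, and ASF1A (-0.44), a histone chaperone, fell. In flagellin, POLD2 (0.36) and PSRC1 (0.53) rose, and GMNN (-0.40), the inhibitor of CDT1, SMC2 (-0.725), KPNA2 (-0.47) and CDK4 (-0.31) fell. With SB203580 plus flagellin, SMC2 (-0.71) and KPNA2 (-0.62) fell and CDKN2D (0.97), an inhibitor of CDK4, rose. The RB, E2F and DREAM list had 0 calls in each arm by edgeR, with an unadjusted p under 0.05 for 2, 3 and 3 of 17 genes, and DESeq2 called 0, 0 and 1.

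Between the replicate sets, 49 of 62 other mitotic genes were lower in replicates 3 and 4 at 2 h and 0 higher, and 52 were lower and 1 higher at 24 h. PIF1, a DNA helicase, had -2.60 at 2 h and FAM83D, a spindle protein, -2.075 and -2.32. These counts stand beside 25.8% lower and 26.2% higher of all genes at 2 h and 32.9% and 31.6% at 24 h. Of 39 other replication genes 13 were lower and 4 higher at 2 h, with ORC1, of the origin recognition complex, at -0.88, and 17 lower and 8 higher at 24 h, with DTL, which targets CDT1 for destruction, at -2.20. Of 16 G1 genes 5 were lower and 3 higher at 2 h and 7 lower and 4 higher at 24 h. CCND1, cyclin D1, was higher by 0.80 at 2 h and SKP2, which targets cyclin E and CDK inhibitors for destruction, by 0.76 and 0.67, while MYC was lower by -0.75 and -0.89.

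Of 17 regulators of the RB, E2F and DREAM system 9 were lower and 5 higher at 2 h and 7 lower and 3 higher at 24 h. E2F2, an activator, was lower by -1.30 at 2 h, E2F7, a repressor, by -0.93 and -1.32, and MYBL2, which acts with FOXM1 on mitotic genes, by -1.19 at 24 h, while RB1, the retinoblastoma protein that restrains E2F, was higher by 1.23 at 24 h. Of 11 genes of histone and chromatin supply 8 were lower and 1 higher at 2 h and 5 lower and 1 higher at 24 h, EZH2, a histone methyltransferase, by -1.06 and -1.35 and HMGB2, a chromatin protein, by -0.95 and -1.59. The median over all genes tested was -0.01 and -0.02 in these 2 comparisons.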

How the data were processed

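RNA from 24 cultures in 6 groups of 4 was sequenced. The deposited file holds raw counts per feature that the authors made with STAR 2.4.0a and featureCounts (Subread 1.4.6-p1), per the submitters' processing notes, which name the build GRCm38, a mouse build, while the features are pig Ensembl genes. For the pig genome assembly, and for whether counting was stranded, a statement was not given in the sources used here. Of 31868 features 5988 that are not pig genes, with 0.00131% of counts, were left out. Symbols came from gene identifiers for 14857 of 25880 pig genes. The names by position required an overlap of at least 0.5 of the spans and gave the same name for 93.0% of 1308 genes named by identifier. Lengths in the deposited file, in exon bases, gave RPKM.

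Counts were filtered (filterByExpr), scaled by TMM (factors 0.836 to 1.07) and fitted with edgeR 4.0.16 (limma 3.58.1, R 4.3.3) by the quasi-likelihood test over all 24 libraries, without a block, and p-values were adjusted by Benjamini-Hochberg over all 14172 genes tested, with a threshold of 0.05. CPM values use these factors unless stated. The replicate sets were compared in a fit with a term for each group and for the set at each time. No 2 libraries of a group agreed within counting noise (chi-square per gene 10.3 to 393 over 36 pairs), so none was taken as a library deposited more than once, which does not show that they are independent. Depth (26345945 to 36267289 counts) limits the rare members most.

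Same-numbered libraries deviated together from their group means (lowest correlation 0.299, 0.211, 0.462 and 0.535 for replicates 1 to 4), which the split into sets alone would also give in part. Of 6 libraries each, 5, 2, 4 and 4 correlated best with their own number. The pairing comes from the data and the shared numbers in the labels, and values with the replicate block are given where they change a call. Alternatives were RLE factors, other count filters, DESeq2 1.42.0, only the groups compared, the block, the set term, each set alone and each library left out. The alternative without 5 libraries, picked from earlier results of these data, was added after seeing the data. The fits were tested on simulated data, in which the genes changed by treatment had no difference between the replicate sets. The simulation therefore does not show how the main fit performs for members with such a difference.

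The members, the 5 lists of other cell cycle genes and the 8 cell type lists were chosen with earlier results of these data known. Named are a preset list of representatives, up to 10 of the largest called members, the lowest and highest member of a comparison, those nearest the expression limit, and up to 4 called genes of each list. No sequence of these genes was used here.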

Additional observations from a re-analysis of the deposited data

Results flagged for a closer look

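In 6 cases 1 library stood apart from the other 3 of its group, of 114 group values examined, with a gap to the nearest library, as a share of the group's range, above Dixon's critical value. Chance alone flags about 1 in 20 such groups. Of these, 4 lay in PBS at 24 h, replicate 3, which was low in PLK1 (2.69 CPM, the others 6.07 to 6.65), CDC6 (0.742 CPM, the others 2.61 to 2.81), MCM2 (6.43 CPM, the others 21.7 to 22.2) and the mean log2 level of the S phase members (3.12, the others 3.85 to 3.9). The flags take no account of the replicate sets. In the other groups at 24 h, replicates 3 and 4 had PLK1 at 2.3 to 3.57 CPM and CDC6 at 0.673 to 0.864 CPM. MCM2 was there at 7.47 to 9.36 CPM and the S phase mean at 3.19 to 3.33. Of replicates 3 and 4 at 24 h, the library apart was PBS replicate 4 (6.1, 2.61 and 21.7 CPM, and 3.90). TYMS was high in PBS at 2 h, replicate 2 (82.2 CPM, the others 56.8 to 60.9), and TK1 in SB203580 plus flagellin at 24 h, replicate 2 (7.65 CPM, the others 5.04 to 5.35).

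The difference between the replicate sets changed with time for 4 of 35 members by a test of the interaction, where 35.0% of all genes were called. The share of members was thus below that of all genes. The UBE2C call was lost without single libraries, as given above, and with no filter on low counts (edgeR adjusted p = 0.0591). It was -1.06 on the log2 scale for MCM5 (adjusted p = 0.0134), -0.88 for UBE2C (adjusted p = 0.0364), -0.36 for NUSAP1 (adjusted p = 0.0183) and 0.47 for RRM1 (adjusted p = 0.00419), by edgeR's quasi-likelihood test.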

How the results depend on the processing

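Of 11438 values of members under the alternatives, 11316 stayed on their side of the threshold, 57 lost a call, 63 gained one and 2 went from an uncalled value to a call of the other sign, and 1038 of those that stayed changed sign while uncalled in both fits. With the term for the replicate set, 1 member was called in SB203580 plus flagellin against PBS at 2 h, 5 over time in PBS, 3 with flagellin, 3 with SB203580 plus flagellin, and 7 among the 6 groups. With the replicate block, 3 were called over time with flagellin, 3 with SB203580 plus flagellin and 5 among the 6 groups. The block changed the calls over time in PBS only by adding MCM6, and no treatment call. With only the groups compared in the fit, 1 was called over time in PBS.

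Replicates 1 and 2 alone gave 2 calls over time with flagellin and 2 with SB203580 plus flagellin, and replicates 3 and 4 alone gave 6 and 1. For fits on part of the libraries the share of all genes called is not given here. These counts are therefore not read as particular to the members. In replicates 3 and 4 alone CCNB1 (-1.20) and UBE2C (-1.40) were called lower over time with flagellin, where their values over all libraries were above 0 (0.18 and 0.10) and not called. The cause was not tested. Without the 5 libraries, 2 members were called over time with flagellin and 5 among the 6 groups. With all libraries DESeq2 called 2 members over time with flagellin, where it called 1624 of 14169 genes.

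Leaving out 1 library at a time gave 0 to 2 calls over time in PBS, 0 to 1 with flagellin, 0 to 1 with SB203580 plus flagellin, 2 to 4 among the 6 groups, 23 to 26 between the sets at 2 h, 31 to 34 at 24 h and 3 to 11 for their interaction with time. The treatment comparisons kept 0 calls when any library was left out. The share of all genes called without a library is not given here. With all libraries, 10.2%, 7.9% and 6.88% of all genes were called over time in these arms and 15.3% among the 6 groups. Between the sets, 25.8% were lower and 26.2% higher at 2 h, and 32.9% and 31.6% at 24 h. The interaction of the sets with time called 35.0%.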
